A study of Mus musculus with 9 samples.

Results

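The ATF4 arm of the integrated stress response was followed in αTC1 cells through 10 genes, taken by symbol from the 33212 rows of the deposited gene count table: Atf4, Atf3, Atf5, Ddit3, Ddit4, Trib3, Chac1, Asns, Sesn2 and Eif4ebp1. All 10 were found once each, and all 10 passed the filter on low counts that left 14754 genes. αTC1 is a glucagon-producing mouse cell line derived from a pancreatic alpha cell tumour. Poly-A RNA was sequenced from cells kept for 7 days with EPZ011989 at 4 µM (4 libraries) or with the solvent DMSO (5 libraries). EPZ011989 inhibits EZH2, the enzyme of Polycomb repressive complex 2 that methylates lysine 27 of histone H3. Cells of both groups belong to 1 line and grew in low-glucose DMEM with serum, penicillin and streptomycin. The labels call the libraries biological replicates but do not say that each came from its own culture. The spread behind every p-value may therefore be technical.

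Cells that lack amino acids, haem or folding capacity in the endoplasmic reticulum phosphorylate the translation initiation factor eIF2 through one of several kinases. General translation then slows, while the mRNA of the transcription factor ATF4 is translated more efficiently through its upstream reading frames. ATF4 joins partner proteins of the basic leucine zipper (bZIP) class and switches on genes for amino acid supply, for restraint of the growth kinase complex mTORC1 and, when stress persists, for cell death. Since ATF4 is controlled largely at translation, its mRNA level is no direct measure of the protein.

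With EPZ011989, 3 of the 10 genes passed the test, and not all in one direction. Sesn2, a brake on mTORC1, and Chac1, which degrades glutathione, were lower, and Atf3, a stress-induced bZIP factor, was higher. Atf4 itself and its classic target Asns lay below the DMSO range in every EPZ011989 library, but neither passed the test. In all, 1 of 10 rose, 2 fell and 7 did not pass at an adjusted p under 0.05 (edgeR quasi-likelihood test, Benjamini-Hochberg adjustment over 14754 genes). Over all genes tested, 16.2% were called higher and 7.96% lower, 24.1% in either direction, so 3 calls among 10 genes are near the background. Of genes at 10 to 100 CPM (CPM, counts scaled to the library total), 11.7% were higher and 10.2% lower. Of all calls 67% were higher, and 77.9% were with upper-quartile scaling. Without EPZ011989 replicate 2, 15.9% of genes were called lower. The median log2 fold change of the 10 was -0.37, against 0.03 over all genes tested, and 8 of the 10 had a value below 0. Every EPZ011989 library lay below every DMSO library for 4 of the 10, where 8.77% of all genes did so, and above for 0 of the 10, where 16.1% did. The count of 2 lower genes depended on the processing: it was 5 with DESeq2, where 11.6% of all genes were lower, and 7 once a trend of each library with transcript length was removed, as set out beside the spread between libraries.

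**Figure D1:**
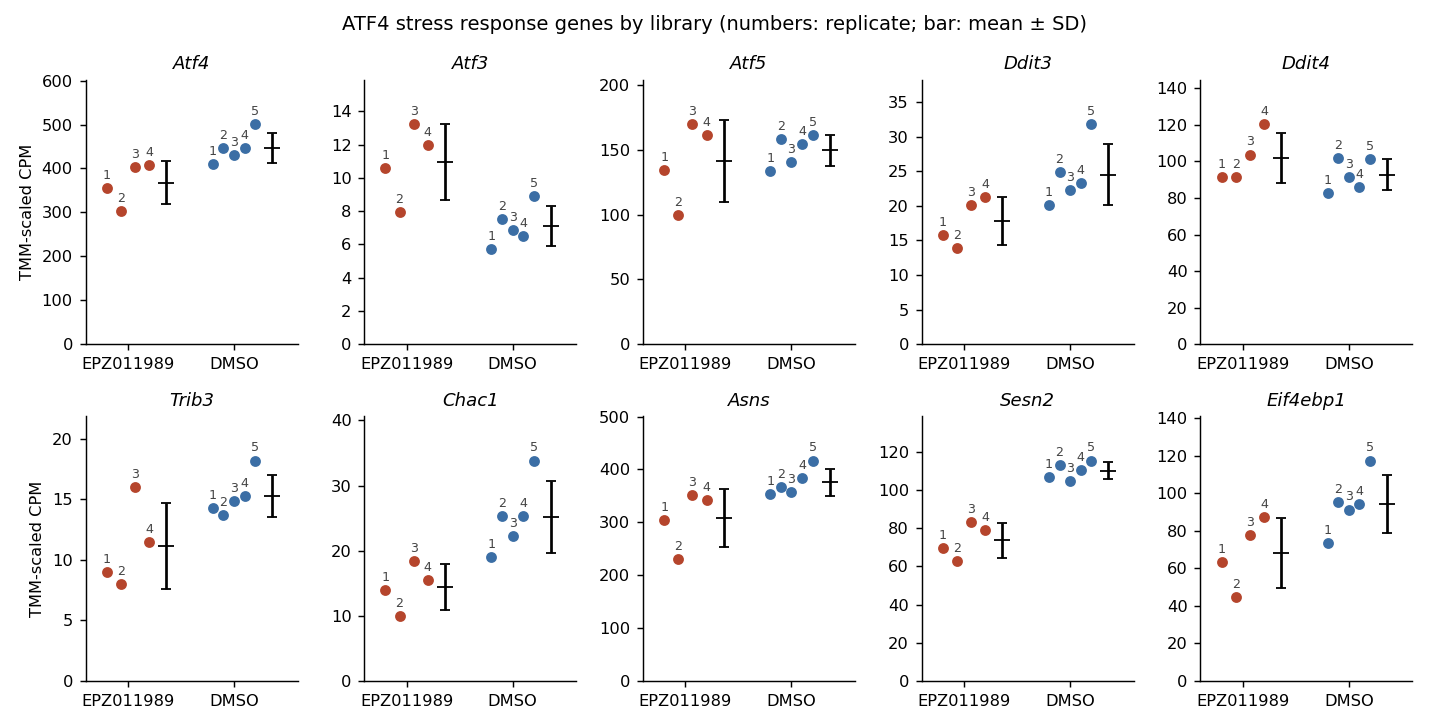
CPM, the count scaled to the TMM-normalized library total, of the 10 genes in each library, one panel a gene, with the replicate number above each point and the mean ± SD beside it (EPZ011989 n = 4, DMSO n = 5). Sesn2 and Chac1 are wholly separated downwards, and EPZ011989 replicate 2 is the lowest EPZ011989 library in 9 of the 10 panels.

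All levels below are CPM unless given per kilobase. Total deposited counts per library lay between 60274140 and 74651782. All 10 alpha cell markers examined passed the filter, 3 of them higher and 0 lower, while among beta cell genes Ins1 and Pdx1 were at 0 counts throughout. The 3 beta cell markers that passed (Ins2, Mafa and Nkx6-1) summed to 43.6 to 55.9 CPM with EPZ011989 and 38.3 to 43.5 CPM with DMSO, most of it Nkx6-1 (44.3 ± 4.2 and 39.9 ± 2.4 CPM, edgeR adjusted p = 0.221). Ins2 was 7.41 times higher, at 4.85 ± 1.46 CPM with EPZ011989 and 0.653 ± 0.243 CPM with DMSO (edgeR adjusted p = 5.72e-05), and Mafa 3.28 times higher, at 1.78 ± 0.30 and 0.541 ± 0.282 CPM (adjusted p = 0.0132). The fibroblast markers that passed (4 of 7) summed to 29.5 to 41.2 CPM in EPZ011989 libraries and 7.25 to 9.84 CPM in DMSO libraries, most of it Pdgfra (27.6 ± 5.9 and 7.29 ± 0.96 CPM). Of the 4, Pdgfra, Thy1 and Col1a1 were higher (edgeR adjusted p = 6.8e-06, 1.3e-05 and 0.0051). Col1a2 did not pass (2.01 ± 0.28 and 1.27 ± 0.32 CPM, edgeR adjusted p = 0.0551). Col3a1, Dcn and Lum were counted in at most 2 of the 9 libraries, and Thy1 in the 4 EPZ011989 libraries only. Macrophage and leukocyte markers that passed (2 of 5) summed to 4.05 to 5.70 CPM and 0.983 to 1.81 CPM in the same order of groups. The difference lay in Lyz2 (3.76 ± 0.76 and 0.289 ± 0.249 CPM, edgeR adjusted p = 3.98e-04), while Cd68 did not pass (0.995 ± 0.205 and 1.07 ± 0.17 CPM, adjusted p = 0.807). Ptprc was counted in 1 library. The endothelial markers that passed (2 of 4) summed to 0.281 to 1.11 CPM with EPZ011989 and 0.0969 to 0.309 CPM with DMSO, with Tek counted in 1 library. Kdr was higher (0.314 ± 0.194 and 0 CPM, edgeR adjusted p = 0.0031), and Pecam1 did not pass the test (0.389 ± 0.178 and 0.194 ± 0.088 CPM, adjusted p = 0.2175). What part these markers have in the stress gene values was not tested, and in bulk RNA fewer expressing cells and less RNA per cell cannot be told apart.

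Sesn2 encodes sestrin 2, a leucine-binding protein that holds mTORC1 back when leucine is short, and gave the smallest p of the 10. The gene lies on chromosome 4 (132492032 to 132510501, minus strand, GRCm38) with 3475 exonic bases. Its level was 69.5, 63.1, 83.2 and 79.3 CPM in EPZ011989 libraries 1 to 4, against 107, 113, 105, 111 and 116 CPM in DMSO libraries 1 to 5. The groups did not overlap, and the highest EPZ011989 library stayed more than 20 CPM under the lowest DMSO library. The mean was 73.8 ± 9.2 CPM with EPZ011989 (SD, n = 4) and 110.2 ± 4.3 CPM with DMSO (n = 5). The log2 fold change was -0.58 ± 0.09 (SE, adjusted p = 6.17e-04, edgeR), a level 0.669 times that of DMSO. Sesn2 passed in all 21 alternatives tried, with log2 fold changes of -0.64 to -0.52 and adjusted p of 5.49e-09 to 0.0168. Its paralogs are also sestrins. Sesn1, which p53 controls, was at 39.0 ± 5.9 CPM and 39.0 ± 1.9 CPM (EPZ011989 and DMSO, log2 fold change 0.00 ± 0.10, adjusted p = 0.988). Sesn3, a FoxO target, was at 95 ± 43 CPM and 99.1 ± 15.4 CPM (adjusted p = 0.895), with 159 CPM in EPZ011989 replicate 2 and 67.1 to 79.7 CPM in the other EPZ011989 libraries. Whether Sesn2 differs from its paralogs in response was not tested.

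Chac1 encodes a gamma-glutamyl cyclotransferase that breaks down glutathione and is among the most responsive ATF4 targets. It lies on chromosome 2 (119351229 to 119354381, plus strand). Levels were 13.9, 10.01, 18.4 and 15.6 CPM in the EPZ011989 libraries, against 19.0, 25.4, 22.3, 25.4 and 33.9 CPM in the DMSO libraries. The groups were adjacent without overlap: the highest EPZ011989 library, replicate 3, came within 1 CPM of the lowest DMSO library, replicate 1. Means were 14.5 ± 3.5 CPM with EPZ011989 and 25.2 ± 5.5 CPM with DMSO. The edgeR fit gave a log2 fold change of -0.80 ± 0.19 (SE) with an adjusted p of 0.0114. This was the lowest fold change of the 10, at 0.575 times the DMSO level. Chac1 passed in 20 of 21 alternatives, with log2 fold changes of -0.94 to -0.64 and adjusted p of 3.48e-04 to 0.0521. Its paralog Chac2, a slower glutathione-degrading enzyme, went the other way, at 16.7 ± 1.5 CPM with EPZ011989 and 12.2 ± 0.6 CPM with DMSO. Its groups did not overlap, and its log2 fold change was 0.46 ± 0.09 (SE, edgeR adjusted p = 0.00287). Per kilobase of exon, Chac1 stood at 8.84 and Chac2 at 12.7 CPM in EPZ011989 cells, and at 15.4 and 9.24 CPM in DMSO cells.

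Atf3 encodes a bZIP factor that is induced by ATF4 and by many other stress and growth signals. Its gene spans 47744 bases of chromosome 1 (191170296 to 191218039, minus strand). It had 10.6, 7.92, 13.3 and 12 CPM in the EPZ011989 libraries and 5.72, 7.499, 6.89, 6.50 and 8.93 CPM in the DMSO libraries. Of the EPZ011989 libraries, 3 were above all DMSO libraries, and replicate 2 lay inside the DMSO range. The mean was 10.95 ± 2.29 CPM with EPZ011989 and 7.11 ± 1.204 CPM with DMSO (log2 fold change 0.62 ± 0.17 SE, adjusted p = 0.0191, edgeR). The call was lost without DMSO replicate 1, 3 or 4 (adjusted p = 0.0538, 0.0511 and 0.0579) and without EPZ011989 replicate 1, 3 or 4 (0.0556, 0.0693 and 0.0533), with log2 fold changes of 0.52 to 0.62 in those fits. It held without DMSO replicate 2 or 5 or EPZ011989 replicate 2, and over all 21 alternatives adjusted p ran between 0.00199 and 0.0693.

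ATF4 and C/EBP proteins together bind a composite element with the core letters TGATGNAA, called CARE or amino acid response element. The RefSeq promoter table (GRCm38.p6, the assembly named mm10) holds a window for 9 of the 10 genes, reaching 250 bases before to 50 bases after the annotated start, with 2 windows for Atf5. Eif4ebp1 had no entry. The core, on either strand, occurs in 4 of these 9 genes and in 4.51% of all 27025 genes in the table. The genes were chosen as members of the ATF4 pathway, so these shares are not an independent comparison. Below are the 250 bases before the start for the 3 genes that were called, and for Asns, a textbook ATF4 target with a match close to its start. Each runs 5′ to 3′ on the gene's own strand, with a match in capitals.
Chac1 (chr2:119350992-119351241, plus strand): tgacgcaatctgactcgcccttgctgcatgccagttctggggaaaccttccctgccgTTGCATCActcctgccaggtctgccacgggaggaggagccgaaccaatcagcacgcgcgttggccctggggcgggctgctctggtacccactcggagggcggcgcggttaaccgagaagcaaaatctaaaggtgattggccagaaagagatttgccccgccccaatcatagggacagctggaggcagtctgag
Atf3 (chr1:191183334-191183583, minus strand): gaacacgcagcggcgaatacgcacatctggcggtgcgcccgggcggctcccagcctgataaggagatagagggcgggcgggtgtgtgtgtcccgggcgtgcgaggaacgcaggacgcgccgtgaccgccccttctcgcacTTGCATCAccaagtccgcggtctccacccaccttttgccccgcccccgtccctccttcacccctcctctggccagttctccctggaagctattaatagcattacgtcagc
Sesn2 (chr4:132510457-132510706, minus strand): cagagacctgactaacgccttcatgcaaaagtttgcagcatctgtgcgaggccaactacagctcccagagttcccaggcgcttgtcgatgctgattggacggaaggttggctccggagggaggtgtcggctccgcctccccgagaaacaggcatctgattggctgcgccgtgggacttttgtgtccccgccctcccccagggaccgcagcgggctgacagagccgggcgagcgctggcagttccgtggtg
Asns (chr6:7693210-7693459, minus strand): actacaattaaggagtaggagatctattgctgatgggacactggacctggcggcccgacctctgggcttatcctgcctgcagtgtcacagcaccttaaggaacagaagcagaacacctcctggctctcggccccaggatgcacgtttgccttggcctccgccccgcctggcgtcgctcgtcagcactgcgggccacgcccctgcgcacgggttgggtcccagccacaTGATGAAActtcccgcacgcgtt
The match begins at base -193 relative to the start in Chac1 and at base -110 in Atf3. The Atf3 window lies inside the gene span given above, whose 5′ end is at 191218039. Bases before that end were not examined. Both read TTGCATCA, with the core on the opposite strand, and these 8 letters stand in 1.03% of all genes in the table on either strand. In Asns the match begins at base -23 and reads TGATGAAA. The fourth match lies in Trib3, from base 15 after the start, on chromosome 2 from 152344031 to 152344054 (minus strand) with 8 bases on each side: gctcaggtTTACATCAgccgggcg. Thus the 2 genes with the letters TTGCATCA were called in opposite directions, and Sesn2, the call with the smallest p, has no match in this window. The palindromic cAMP response element TGACGTCA stood in 0 of the 9 genes and in 2.03% of all genes. These matches describe letters only. They do not show that a protein binds there.

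Atf4, the factor at the centre of the pathway, was the most abundant of the 10 per kilobase of exon in both groups. Its gene on chromosome 15 (80255184 to 80257541, plus strand) had 356, 303, 403 and 408 CPM in the EPZ011989 libraries, against 409, 447, 430, 447 and 502 CPM in the DMSO libraries. The groups touched without overlap, since EPZ011989 replicate 4 was less than 2 CPM under DMSO replicate 1. Means were 367 ± 49 CPM with EPZ011989 and 447 ± 34 CPM with DMSO. The log2 fold change of -0.28 ± 0.10 (SE) did not pass (adjusted p = 0.0585, edgeR), with a 95% interval of -0.50 to -0.07 before adjustment for the number of genes. It passed in 6 of 21 alternatives, among them the fits that left out EPZ011989 replicate 2 (-0.21, adjusted p = 0.0412) or replicate 4 (-0.35, adjusted p = 0.0413). Over all alternatives adjusted p lay between 0.00388 and 0.178.

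Among the other bZIP genes of the set, Ddit3 encodes CHOP, which promotes death under lasting stress. It was at 15.8, 13.9, 20.2 and 21.3 CPM in the EPZ011989 libraries and 20.2, 24.9, 22.3, 23.3 and 31.9 CPM in the DMSO libraries. The groups overlapped through EPZ011989 replicate 4, which lay above DMSO replicate 1. The log2 fold change was -0.46 ± 0.16 (SE, adjusted p = 0.0559, edgeR), just outside the threshold, and 8 of 21 alternatives put it inside. Exons of Ddit3 share 68 bases with Mars and 13 bases with Gm4189 on the opposite strand, and 105 bases (6.1%) on the same strand with another Ddit3 entry of the annotation that is not a row of the count table analysed here. Strand use in the counting is not given in the sources used here. Atf5, which is translated under stress much as ATF4 is and supports mitochondrial protein quality, was at 134, 100, 170 and 161 CPM with EPZ011989 and 134, 158, 140, 154 and 161 CPM with DMSO. The EPZ011989 libraries spread on both sides of the DMSO range, and the log2 fold change was -0.08 ± 0.14 (SE, adjusted p = 0.738, edgeR, 95% interval -0.39 to 0.22). Its sign turned to 0.05 without EPZ011989 replicate 2. Atf5 shares 82 exonic bases with Il4i1 and Nup62, also on the opposite strand.

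Asns encodes asparagine synthetase, the textbook reporter of the amino acid response, and has 13 exon blocks on chromosome 6 (7675169 to 7693254, minus strand). Levels were 304, 231, 352 and 342 CPM in the EPZ011989 libraries and 354, 366, 358, 383 and 417 CPM in the DMSO libraries. No library of one group reached the other, but EPZ011989 replicate 3 and DMSO replicate 1 lay less than 2 CPM apart. The log2 fold change of -0.29 ± 0.12 (SE) did not pass (adjusted p = 0.0990, edgeR). Trib3, a pseudokinase that restrains AKT and feeds back on ATF4, was at 9.01, 8.01, 16.04 and 11.5 CPM with EPZ011989 and 14.3, 13.7, 14.8, 15.3 and 18.2 CPM with DMSO. Here 3 EPZ011989 libraries lay below all DMSO libraries, and replicate 3 lay above 4 of the 5. The log2 fold change was -0.45 ± 0.19 (SE, adjusted p = 0.107, edgeR). Without EPZ011989 replicate 3 it was -0.68 and passed (adjusted p = 0.00914), and over all 21 alternatives adjusted p ran between 0.00914 and 0.314. The paralogs Trib1 (61.9 ± 0.6 and 63.6 ± 2.2 CPM, EPZ011989 and DMSO) and Trib2 (114 ± 8 and 116 ± 10 CPM) did not pass (adjusted p = 0.690 and 0.813).

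The remaining pair, with Sesn2, acts on mTORC1 and its output. Eif4ebp1 encodes 4E-BP1, which binds the cap-binding factor eIF4E and blocks cap-dependent translation until mTORC1 phosphorylates it. It was at 63.3, 44.7, 77.5 and 87.5 CPM in the EPZ011989 libraries and 73.7, 95.3, 91.3, 94.2 and 117 CPM in the DMSO libraries. Replicates 3 and 4 of EPZ011989 overlapped DMSO replicate 1, and the log2 fold change of -0.47 ± 0.18 (SE) did not pass (adjusted p = 0.0925, edgeR), but did without EPZ011989 replicate 4 (-0.62, adjusted p = 0.0347). Its adjusted p over the 21 alternatives was 0.0202 to 0.195. The paralog Eif4ebp2 was at 59.4 ± 13.4 and 69.0 ± 6.9 CPM (EPZ011989 and DMSO, adjusted p = 0.316), and Eif4ebp3 was near the detection limit at 0.387 ± 0.232 and 0.273 ± 0.195 CPM (adjusted p = 0.628). Ddit4 encodes REDD1, which inhibits mTORC1 through the TSC complex and also responds to hypoxia and glucocorticoids. Levels were 91.4, 91.5, 104 and 121 CPM with EPZ011989 and 82.9, 102, 91.7, 86.3 and 102 CPM with DMSO, with EPZ011989 replicates 3 and 4 above all DMSO libraries. The log2 fold change of 0.13 ± 0.10 (SE) did not pass in the edgeR test (adjusted p = 0.396) or in any of the 21 alternatives. Its paralog Ddit4l had no count in any library.

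**Figure D2:**
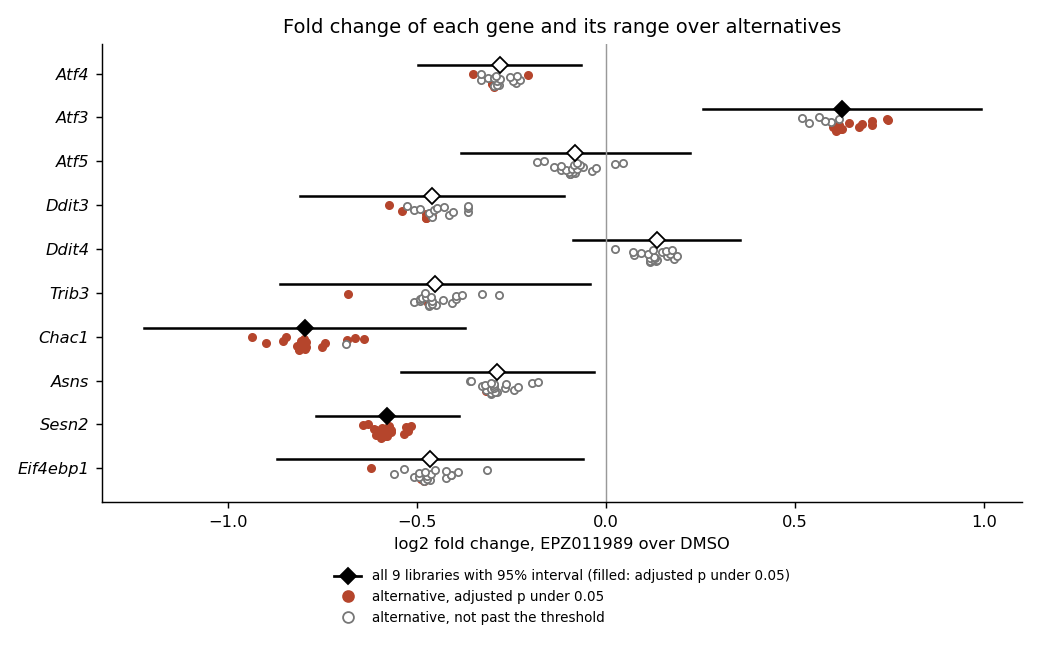
Log2 fold change of each gene, EPZ011989 over DMSO, on the horizontal axis. Diamonds with lines are the fit to all 9 libraries with its 95% interval, circles below them the 21 alternatives, filled where adjusted p is under 0.05. Sesn2 is filled throughout, Chac1 in 20 of 21 and Atf3 in 15 of 21, while Atf5 and Ddit4 are filled in none.

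Set per kilobase of exon, the 10 genes covered a wide range of levels. In EPZ011989 cells the order was Atf4 (156 ± 21 CPM per kilobase), Asns (112 ± 20), Atf5 (70.9 ± 15.8), Ddit4 (58.0 ± 7.9), Eif4ebp1 (31.1 ± 8.5), Sesn2 (21.2 ± 2.6), Ddit3 (10.4 ± 2.0), Chac1 (8.84 ± 2.15), Trib3 (5.24 ± 1.68) and Atf3 (5.08 ± 1.06). The ranges of neighbours overlapped at every step except between Ddit4 and Eif4ebp1 and between Sesn2 and Ddit3. Compared library by library, each gene stood above the next in all 4, except Atf5 over Ddit4 (3) and Trib3 over Atf3 (2). In DMSO cells Atf4 (189 ± 15 CPM per kilobase), Asns (137 ± 9) and Atf5 (75.0 ± 6.0) led in the same order, followed by Ddit4 (52.9 ± 4.9), Eif4ebp1 (43.0 ± 7.1) and Sesn2 (31.7 ± 1.3). Chac1 (15.4 ± 3.4) and Ddit3 (14.3 ± 2.6) stood the other way round there, with overlapping ranges and Chac1 the higher in 4 of 5 libraries. Atf3 (3.30 ± 0.56) was last, below the range of Trib3 (7.17 ± 0.83).

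Inside each group, the 10 genes were high or low in the same libraries. EPZ011989 replicate 2 was the lowest EPZ011989 library for 9 of the 10 genes, and replicates 3 and 4 were above their group mean for all 10. DMSO replicate 1 was the lowest DMSO library for 8 of the 10, and DMSO replicate 5 the highest for 9 of the 10. Over the 45 pairs of genes, the correlation of log2 CPM deviations from the group means was 0.487 to 0.984 with a median of 0.887 (9 libraries). All points share the same libraries and their scaling, so these are descriptions. Scaled and averaged over the 10 genes, the deviation was -0.39, -1.68, 1.12 and 0.95 SD in EPZ011989 libraries 1 to 4 and -0.82, 0.17, -0.31, -0.07 and 1.03 SD in DMSO libraries 1 to 5. The spread was wider with EPZ011989: the median SD of log2 CPM was 0.305 there and 0.146 with DMSO, a difference that was not tested.

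Transcript length moved with part of this pattern. Across 9298 genes averaging 10 CPM or more, the log2 CPM deviation changed by 0.01, 0.19, -0.05 and -0.16 per doubling of exon length in EPZ011989 libraries 1 to 4, and by 0.08, -0.03, 0.04, 0.00 and -0.09 in DMSO libraries 1 to 5. Short genes were thus low in EPZ011989 replicate 2 and DMSO replicate 1 and high in EPZ011989 replicate 4 and DMSO replicate 5. All 10 stress genes are short, with 1637 to 3475 exonic bases against a median of 4788 over the same 9298 genes. Of those genes, 46.4% were lowest in EPZ011989 replicate 2 among the EPZ011989 libraries, and 25.9% were lowest in DMSO replicate 1 among the DMSO libraries. In the same way 10.7% were highest in EPZ011989 replicate 3, 39.7% in EPZ011989 replicate 4 and 33% in DMSO replicate 5. Removing the length trend, an alternative chosen after seeing the data, reduced the median SD of the 10 genes to 0.210 with EPZ011989 and 0.104 with DMSO, and the mean deviation of EPZ011989 replicate 2 was -0.23 in place of -0.38 (log2). That of EPZ011989 replicate 3, the highest EPZ011989 library for 6 of the 10, was 0.22 in place of 0.26, and that of replicate 4 was 0.09 in place of 0.20. In that fit 7 of the 10 were called lower and 1 higher, while 11.8% of all genes were called lower. The added calls were Atf4 (log2 fold change -0.30, adjusted p = 0.00388), Ddit3 (-0.46, 0.00974), Asns (-0.32, 0.0135), Eif4ebp1 (-0.49, 0.0202) and Trib3 (-0.47, 0.0419), all from edgeR. Atf5 and Ddit4 did not pass there either.

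**Figure D3:**
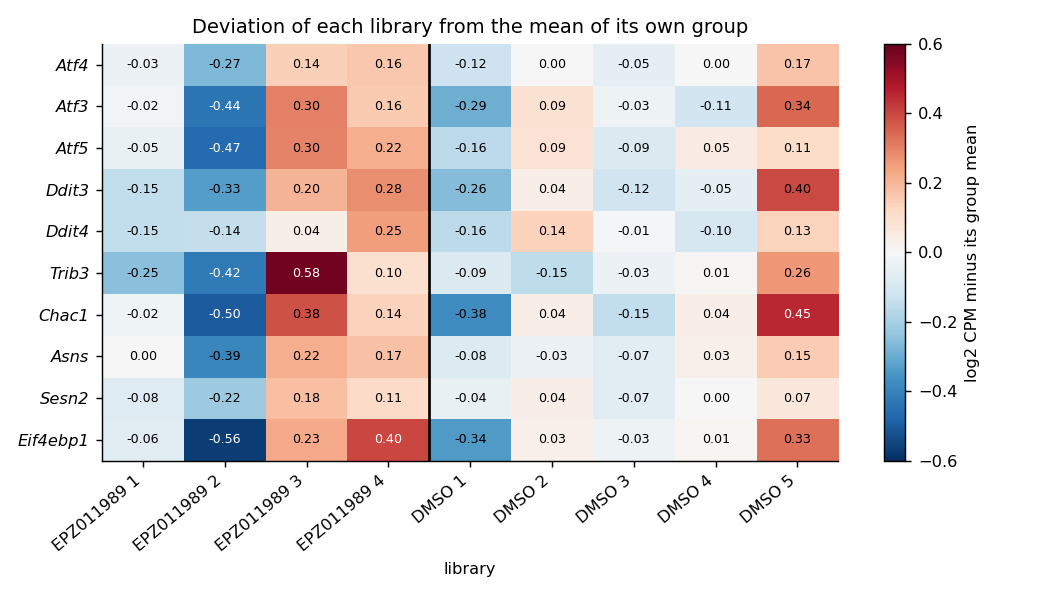
Log2 CPM of each gene in each library minus the mean of that library's own group, 10 genes by 9 libraries, EPZ011989 left of the line and DMSO right of it. The column of EPZ011989 replicate 2 is below 0 for all 10 genes, and those of EPZ011989 replicates 3 and 4 and DMSO replicate 5 are above 0 for all 10.

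Genes outside the set that followed the mean profile of the 10 most closely, among 9826 named genes averaging 5 CPM or more, were Akr1b3 (r = 0.994 over 9 libraries of within-group deviations), Apopt1 (0.993), Llph (0.993), Pam16 (0.989) and Ufc1 (0.988). Of these 5, Llph was lower (63.0 ± 9.0 CPM with EPZ011989 and 82.5 ± 6.8 CPM with DMSO, adjusted p = 0.0183, edgeR) and 4 did not pass. They are the closest of many candidates, and the coefficients are descriptions.

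Upstream of ATF4, the eIF2 kinases did not pass. Eif2ak4 (GCN2, which senses uncharged tRNA) was at 29.6 CPM with EPZ011989 and 28.2 CPM with DMSO (adjusted p = 0.639), Eif2ak3 (PERK, of the endoplasmic reticulum) at 56.9 and 55.1 CPM (0.752), Eif2ak1 (HRI, which senses haem and mitochondrial stress) at 68.8 and 69.1 CPM (0.970) and Eif2ak2 (PKR, which senses double-stranded RNA) at 23.6 and 28.2 CPM (0.354). The GCN2 activator Gcn1l1 was lower, at 228 ± 8 CPM with EPZ011989 and 277 ± 12 CPM with DMSO (-0.28 ± 0.06 on the log2 scale, edgeR adjusted p = 0.00490). It was the 1 call among 7 genes of the kinases and their control, or 14.3% lower against 7.96% among all genes tested. With the length trend removed, 0 of the 7 were lower and 1 was higher. Of 12 subunits of eIF2, of its exchange factor eIF2B and of the eIF2 phosphatases, 4 (33.3%) were lower and 0 higher. Among all genes tested 7.96% were lower, with 10.2% at 10 to 100 CPM and 15% at 100 CPM or more. The 4 were all 3 measured eIF2 subunits, Eif2s1 (130 ± 2 and 150 ± 5 CPM, EPZ011989 and DMSO), Eif2s2 (198 ± 11 and 234 ± 19 CPM) and Eif2s3x (165 ± 26 and 206 ± 10 CPM), and Eif2b1 (52.1 ± 6.6 and 71.9 ± 6.3 CPM). That count was 1 with upper-quartile scaling or without EPZ011989 replicate 3, and 2 with library size alone or without EPZ011989 replicate 1 or DMSO replicate 2. Ppp1r15a, the stress-induced GADD34 that reverses eIF2 phosphorylation and is an ATF4 target, was at 59.0 and 51.5 CPM and did not pass (adjusted p = 0.414). Of 10 possible bZIP partners of ATF4, Jun (27.5 ± 3.7 CPM with EPZ011989 and 22.0 ± 1.7 CPM with DMSO, adjusted p = 0.0410) and the low Batf3 (1.54 ± 0.44 and 0.228 ± 0.174 CPM, adjusted p = 0.00166) were higher and 0 lower, or 20% against 16.2% higher among all genes tested. Only 1 of the 10 was higher when any single library other than EPZ011989 replicate 2 was left out, and 2 were lower without that replicate. Cebpg, an ATF4 partner and target, was at 66.6 and 74.1 CPM (adjusted p = 0.166).

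Downstream, most ATF4 targets for amino acid supply were lower. Of 21 genes for amino acid synthesis and transport, 13 (61.9%) were lower and 0 higher, with a median log2 fold change of -0.44. Among all genes tested 7.96% were lower, with 10.2% at 10 to 100 CPM and 15% at 100 CPM or more. Of the 21, the smallest p belonged to Slc1a5, Aldh1l2, Cth and Psat1. Phgdh, the entry enzyme of serine synthesis, was at 166 CPM with EPZ011989 and 249.2 CPM with DMSO (-0.59 ± 0.13 on the log2 scale, edgeR adjusted p = 0.00683), and Slc7a5, the leucine transporter subunit, at 220 and 286 CPM (-0.38 ± 0.09, adjusted p = 0.0109). These lists were drawn up with earlier results of these data known, so the direction is not independent support. Within the same list Slc7a11, the cystine transporter (12.5 and 12.9 CPM, adjusted p = 0.834), Slc38a2 (222 and 228 CPM, 0.831) and Slc3a2 (278 and 299 CPM, 0.602) did not pass.

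All 20 cytosolic aminoacyl-tRNA synthetase genes had a log2 fold change below 0, with a median of -0.27, and 9 were lower and 0 higher, or 45.0%. The lowest p belonged to Eprs (386 ± 13 CPM with EPZ011989 and 542 ± 16 CPM with DMSO), Iars (153 ± 13 and 221 ± 11 CPM), Lars (134 ± 10 and 186 ± 9 CPM) and Nars (227 ± 17 and 299 ± 7 CPM), with adjusted p of 1.34e-04 to 0.00103 (edgeR). Of all genes with a mean of 100 CPM or more, where most synthetases lie, 15.0% were lower and 4.55% higher. Xpot, the tRNA exporter, was also lower (116 ± 16 and 157 ± 11 CPM, adjusted p = 0.00647). It was one of 13 stress and signalling targets that passed the filter. Of these, 2 were higher (Bcl2l11 and Mknk2) and 2 lower (Xpot and Rab39b). These shares of 15.4% each way stand against 16.2% higher and 7.96% lower among all genes tested. The higher count was 0 without EPZ011989 replicate 1 or 3 or without DMSO replicate 2, 3, 4 or 5, 1 without EPZ011989 replicate 4 or DMSO replicate 1, and 4 without EPZ011989 replicate 2. The lower count was 1 to 4 over the same fits, at 1 without EPZ011989 replicate 1 or 3 or DMSO replicate 3 or 4 and at 4 without EPZ011989 replicate 2. Nupr1, a stress-induced chromatin protein, was at 34.8 and 43.3 CPM (adjusted p = 0.232). The stress hormone genes Fgf21 and Gdf15 had at most 17 and 19 counts in any library and were not tested.

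**Figure D4:**
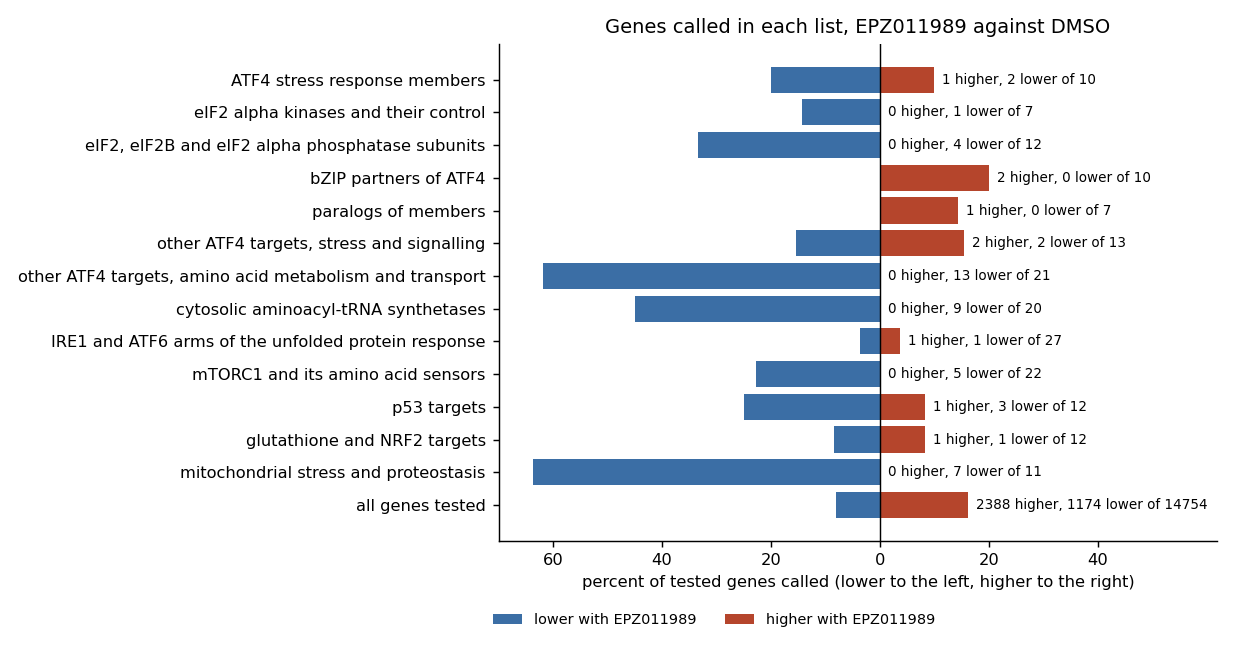
Percent of tested genes called lower (left) or higher (right) with EPZ011989 in each list around ATF4 and over all genes tested, at an adjusted p under 0.05 (edgeR), with the counts beside each bar. The longest bars to the left are mitochondrial proteostasis (7 of 11) and amino acid supply (13 of 21), while the other arms of the unfolded protein response have 1 call on each side.

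Stress pathways next to ATF4 gave unequal counts. In the IRE1 and ATF6 arms of the unfolded protein response, 25 of 27 genes did not pass, and the median log2 fold change was -0.02. The calls there were 1 higher and 1 lower, or 3.7% each way. All genes tested gave 16.2% higher and 7.96% lower, so most genes did not pass in either case. Hspa5, the chaperone BiP that reports endoplasmic reticulum stress, was at 539 CPM with EPZ011989 and 580 CPM with DMSO (-0.11 ± 0.06 on the log2 scale, edgeR adjusted p = 0.281), and Xbp1 at 76.8 and 75.9 CPM (0.922). Creld2 was higher (63.4 ± 7.4 and 49.8 ± 2.8 CPM, adjusted p = 0.0136) and Canx lower (272 ± 24 and 321 ± 10 CPM, adjusted p = 0.0316). Leaving out single libraries gave 0 to 4 higher and 0 to 2 lower in these arms. Of 11 genes for mitochondrial protein folding and turnover, 7 (63.6%) were lower and 0 higher, against 7.96% lower among all genes tested and 15% among those at 100 CPM or more. They were led by Hspd1, the chaperonin HSP60 (1017 ± 70 CPM with EPZ011989 and 1539 ± 25 CPM with DMSO, -0.60 ± 0.07 on the log2 scale, edgeR adjusted p = 9.26e-05), and by the protease gene Lonp1 (245 ± 34 and 396 ± 17 CPM, -0.69 ± 0.09, adjusted p = 3.30e-04). Hspa9 and Afg3l2 were also among them.

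In mTORC1 and its amino acid sensors, 5 of 22 genes (22.7%) were lower and 0 higher, against 7.96% lower among all genes tested, 10.2% at 10 to 100 CPM and 15% at 100 CPM or more. The count was 2 with library size alone or without EPZ011989 replicate 3, and 8 without EPZ011989 replicate 2. The 5 were Mtor itself (84.8 ± 10.7 and 110 ± 13 CPM, EPZ011989 and DMSO, adjusted p = 0.0273), Wdr59, Rragd, Eif4g1 and Eif4e, the partner of 4E-BP1 (189 ± 4 and 225 ± 11 CPM, adjusted p = 0.0101). Of 12 p53 targets, Cdkn1a, the cell cycle inhibitor p21, was higher (91.1 ± 13 and 55.4 ± 3.2 CPM, edgeR adjusted p = 2.67e-04). Zmat3, Ccng1 and Trp53inp1 were lower, or 25% lower and 8.33% higher in this list. All genes tested gave 7.96% lower and 16.2% higher, and those at 10 to 100 CPM gave 10.2% lower and 11.7% higher. Of 12 glutathione and NRF2 target genes, Srxn1 was higher (143 ± 15 and 120.4 ± 2.2 CPM, adjusted p = 0.0302) and Gclm, a subunit of the enzyme that makes the glutathione precursor, lower (91.3 ± 5.9 and 107 ± 4 CPM, adjusted p = 0.0249). These shares of 8.33% each way stand against 16.2% higher and 7.96% lower among all genes tested. The NRF2 list had 0 higher when any single library other than EPZ011989 replicate 2 was left out, and 0 lower without EPZ011989 replicate 3 or with upper-quartile scaling.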

How the data were processed

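Poly-A RNA of 9 αTC1 libraries was sequenced with an Illumina library kit, per the labels' protocols. HISAT2, StringTie, DESeq2 and the build mm10 are listed, with neither roles nor versions, per the submitters' processing notes. The authors deposited whole-number counts per gene (33212 rows). They also deposited a normalized signal table, in which each value is the count divided by 1 factor per library. More values were 4 or 5 than 2 or 3, so many fragments appear to add about 4 counts. Values of 1 were more frequent still (3970, against 3046 of 4), so not all counts step by 4.

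In edgeR 4.0.16 (R 4.3.3), filterByExpr kept 14754 genes, TMM set the scaling, and a robust quasi-likelihood fit had treatment as its only term. Two-sided p-values were adjusted by Benjamini-Hochberg over those genes. CPM use TMM-scaled library sizes, and SEs were taken from the fold change and its F statistic. The fit was tested on simulated data. Exon lengths and positions come from GENCODE M21 (GRCm38).

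The members, lists and alternatives were chosen with earlier results of these data known. Named genes were all 10 members, paralogs, up to 4 called genes per list by smallest p and the 5 genes closest to the members' profile. Genes named beyond that rule (Phgdh, Slc7a5, Slc7a11, Slc38a2, Slc3a2, the eIF2 kinases, Ppp1r15a, Cebpg, Nupr1, Fgf21, Gdf15, Hspa5, Xbp1, Rragd and the markers) were chosen after their values were seen. Alternatives were other scaling factors and filters, DESeq2 1.42.0, limma 3.58.1 (voom, and log2 of the normalized value + 1 for rows with a mean of at least 10), counts divided by 4, a replicate block, leaving out libraries, and removal of a length trend. The lowest chi-square per degree of freedom between replicates was 4.03 (counts divided by 4), so none was counted as a duplicate. Intervals cover the spread between libraries, and depth was 60274140 to 74651782 counts.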

Additional observations from a re-analysis of the deposited data

Results flagged for a closer look

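Among the 57 named genes, 114 groups of 4 or 5 libraries were examined for a single library far from the rest, and 6 stood apart, where chance gives about 1 in 20. None of the 10 ATF4 stress response genes was among them. Sesn3, the paralog of Sesn2, was at 159 CPM in EPZ011989 replicate 2 and at 67.1 to 79.7 CPM in the other 3 EPZ011989 libraries. Slc1a5 was at 120 CPM in DMSO replicate 5 and at no more than 106 CPM in the other DMSO libraries. Afg3l2 was at 260 CPM in that replicate, against a DMSO mean of 250.2 CPM. Srxn1 was at 124 CPM in DMSO replicate 2, with 119 to 120 CPM in the others, and Batf3 at 0.530 CPM there, with 0.0857 to 0.194 CPM in the others. Jun was at 18.9 CPM in DMSO replicate 4 and at 22.4 to 23.3 CPM in the other DMSO libraries.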

How the results depend on the processing

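Over 21 alternatives, Sesn2 passed in every one, Chac1 in 20 and Atf3 in 15. The count of stress genes called lower, 2 of 10, was 5 with DESeq2, 4 with limma-voom, 4 with limma on log2(normalized value + 1) and 7 with the length trend removed. Of all genes tested in those fits, 11.6%, 8.69%, 9.14% and 11.8% were lower, in place of 7.96%. When single libraries were left out, 2 to 5 stress genes were lower. The highest count was without EPZ011989 replicate 4, where 8.7% of all genes were lower. The count of stress genes called higher was 0 to 1 when single libraries were left out. Atf5 had log2 fold changes of -0.184 to 0.0451 when single libraries were left out, above 0 only without EPZ011989 replicate 2, and 0.023 without EPZ011989 libraries 2 and 4, neither past the threshold. Over all genes, 776 were called lower with upper-quartile factors in place of 1174, so that higher genes made up 77.9% of calls in place of 67.0%. Without single libraries 781 to 2377 genes were lower, the ends being without EPZ011989 replicates 3 and 2, and 1861 to 2939 higher. The cause was not tested.

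Same-numbered libraries did not deviate together (r = -0.0985 to 0.0302), and 1 of 4 EPZ011989 libraries correlated best with its own number. With the replicate block, 1550 genes were higher and 471 lower, and 1 stress gene was lower and 1 higher, Chac1 being at a log2 fold change of -0.69 (adjusted p = 0.0521). Of 504 counts for the surrounding lists under these alternatives, 400 stayed within 1.5 times of the value reported and 104 did not. The synthetase count of 9 lower was 5 with the block. Steps of about 4 counts limit genes of few counts, such as Batf3 and Eif4ebp3.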
